A study of Drosophila melanogaster with 2 samples.

Results

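Distal intergenic binding sites of HLH3B were those sites of the main peak set whose summit lay more than 1000 bp from every annotated transcript start and in no annotated gene body. The rule used positions alone, and it found 499 sites among the 3846 of the main set (13.0%). The other sites were 1284 distal genic sites, whose summit lay inside a gene body more than 1000 bp from a start, and 2063 promoter sites, whose summit lay within 1000 bp of a start. The data came from chromatin immunoprecipitation sequencing (ChIP-seq) of whole Drosophila melanogaster embryos aged 8 to 24 hours, an age taken from the source name because the age field of the labels holds a number of hours that no embryo could have. All embryos carried a transgene for HLH3B fused to enhanced green fluorescent protein (eGFP), and per the sample description the precipitation used an antibody against GFP, while the antibody field of the labels reads HLH3B. Sonication gave a stated size range of 200 to 800 bp. There was 1 group of 2 biological replicates, with no second genotype, treatment or time, and the control experiment was not analysed here. The sources used here do not name the promoter that drives the fusion protein, and whole embryos mix all cell types.

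HLH3B belongs to the Tal1 branch of the bHLH family, which is named for its basic helix-loop-helix domain. Such proteins bind DNA as dimers with a partner such as Daughterless, at E-boxes, which are short sites of the form CANNTG. Vertebrate Tal1 is known for blood and nervous system development, where it often acts with GATA factors at distal enhancers. Enhancers in flies lie upstream of genes, in introns and in the gaps between genes, and the distal intergenic sites are those in the gaps.

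The sequences under the summits show a feature that most of these sites had, a core rich in A and T. The 101 bp around the summit are printed for 6 of the 8 strongest distal intergenic sites and for the strongest site with the E-box CAGATG, the textbook Tal1 site. Sequences are from the RefSeq Release 6 reference (dm6), plus strand, and capitals mark E-boxes (CANNTG) and matches to the GATA motif WGATAR (W for A or T, R for A or G), on either strand.
Gap between COX7AL2 and CG31668, chr2L:2202353-2202453: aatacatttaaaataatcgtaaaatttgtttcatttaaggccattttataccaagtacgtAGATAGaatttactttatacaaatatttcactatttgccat
Gap between lncRNA:CR44603 and lncRNA:CR45695, left site, chr2L:1632785-1632885: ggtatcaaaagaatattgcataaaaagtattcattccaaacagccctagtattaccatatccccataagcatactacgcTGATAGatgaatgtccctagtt
Upstream of foxo, chr3R:14053558-14053658: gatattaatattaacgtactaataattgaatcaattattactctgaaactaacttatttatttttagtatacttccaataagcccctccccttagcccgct
Gap between lncRNA:CR44603 and lncRNA:CR45695, middle site, chr2L:1638742-1638842: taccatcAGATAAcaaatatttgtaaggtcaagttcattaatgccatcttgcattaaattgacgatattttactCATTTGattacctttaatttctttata
Gap between CG43245 and lncRNA:CR44544, chr3L:10776521-10776621: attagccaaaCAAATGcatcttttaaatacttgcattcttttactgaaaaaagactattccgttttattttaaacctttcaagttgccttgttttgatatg
Gap between lncRNA:CR44603 and lncRNA:CR45695, right site, chr2L:1643389-1643489: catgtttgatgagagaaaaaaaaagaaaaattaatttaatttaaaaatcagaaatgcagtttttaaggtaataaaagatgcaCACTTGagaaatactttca
Upstream of lncRNA:CR43437, chr4:424767-424867: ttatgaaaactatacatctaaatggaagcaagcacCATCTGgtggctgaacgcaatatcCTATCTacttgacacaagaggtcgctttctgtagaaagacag
Of the first 6 sequences, 3 held an E-box and 3 a WGATAR match, and none held CAGATG. The strongest site and the one ranked 4 are not printed, and over all 8 sites 5 held an E-box and 4 WGATAR. The G+C content of the first 6 sequences was 22.8 to 35.6%, and the right site of the gap next to lncRNA:CR45695 had an unbroken run of 23 A or T bases. The last sequence held CAGATG, read there as CATCTG, with a WGATAR match, and its G+C content was higher, at 40.6%.

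The strongest distal intergenic sites lay beside genes of quite different kinds. Signal is the authors' own value for a peak, on an unstated scale, and it only ranks peaks within a list. Values for a replicate come from that replicate's own candidate list, for a candidate summit within 100 bp. The strongest site (2R 13035195 to 13035488) reached a signal of 1837, and it had 959 in the list of replicate 1 and 878 in that of replicate 2. It ranked 7 in the whole set and lay in the gap of 36783 bp between Su(z)2, a Polycomb-group relative, and CG13323. The next (2L 2202268 to 2202542) had a signal of 1128, with 629.6 and 498 in replicates 1 and 2. It lay between COX7AL2, named for a subunit of cytochrome c oxidase, and CG31668. All of the 15 strongest sites were in the thresholded lists of both replicates. Of these 15 sites, 6 were higher in replicate 1 and 9 in replicate 2, and the largest difference between replicates was 1.72-fold.

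The gap on 2L between lncRNA:CR44603 and lncRNA:CR45695 held 3 of the 15 strongest sites. The next protein-coding genes were RFeSP on the left and chinmo, a zinc finger gene of neuronal temporal identity, on the right. The left site had a signal of 799, with 365 in replicate 1 and 429 in replicate 2. The middle site had 652, with 260.3 in replicate 1 and 392 in replicate 2. The right site had 585, with 275 in replicate 1 and 313 in replicate 2. All 3 sites were higher in replicate 2, while the 2 strongest sites of all were higher in replicate 1.

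Other strong sites lay near known regulators of metabolism and development. The site 3337 bp upstream of foxo, a fork head factor of insulin signalling, reached 698, with 335 in replicate 1 and 374 in replicate 2 (3R 14053467 to 14053730). A site between blw, the ATP synthase alpha subunit gene, and the mitotic cyclin gene CycB reached 739, with 360.5 in replicate 1 and 380.5 in replicate 2. The site between slp1 and slp2, a pair of fork head segmentation genes, reached 515, with 256 in replicate 1 and 255 in replicate 2 (2L 3832406 to 3832621). These values were nearly equal between replicates. The site in the gap of 437 bp between Sol1 and the cytochrome P450 gene Cyp9f2 was less even, as it reached 552 and had 348 in replicate 1 but 202 in replicate 2. The remaining sites among the 15 had signals of 472 to 640.3 and bordered CG43245, CG13898, CG7560 (with 2 sites), tal and RabGGTa. The next site in order had 462 and lay beside Psc, a Polycomb-group gene.

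**Figure D1:**
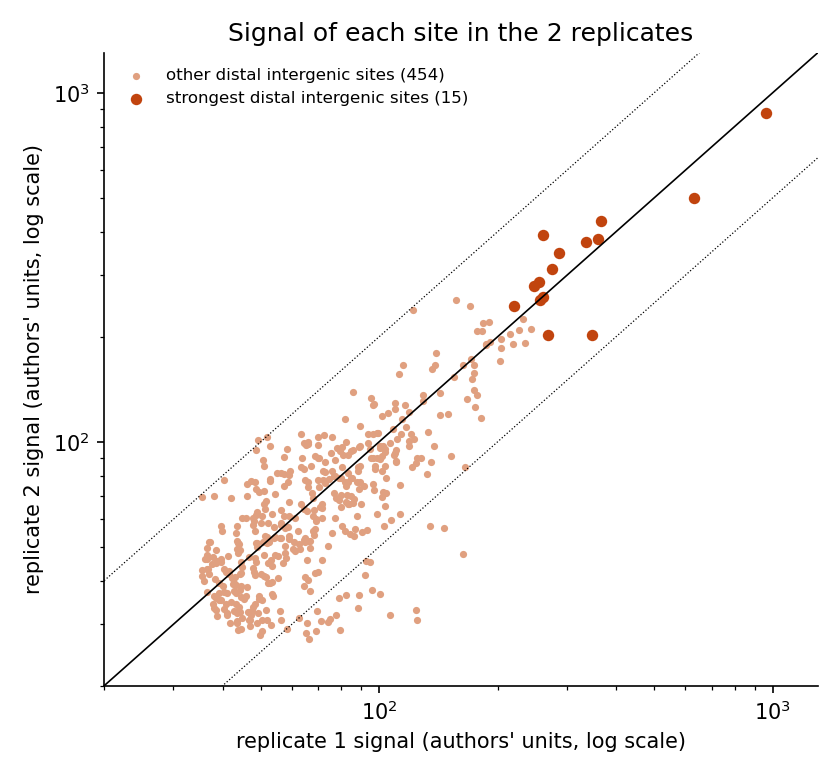
Signal of each distal intergenic site in replicate 1 (horizontal) and replicate 2 (vertical), in the authors' units on log axes, for 469 sites that have one in each. Larger points are the 15 strongest sites, the solid line marks equal values and the dotted lines a 2-fold difference, within which 441 sites lie.

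Most distal intergenic sites had a counterpart in each replicate. Both replicates had a candidate summit within 100 bp at 469 of 499 sites (94.0%). Over the sites with a candidate, replicate 1 signals had a median of 66.5 (35.5 to 959) and replicate 2 signals a median of 62.0 (27.2 to 878). The 2 values lay within 2-fold of each other at 441 of the 469 sites, and replicate 1 was higher at 277. Spearman's rho between replicates was 0.727 over 469 distal intergenic sites, against 0.745 over distal genic and 0.787 over promoter sites. It is given without a p-value, since the sites share libraries and the set was chosen for ranks that repeat. Such a selection also favours sites with a candidate of similar rank in each replicate. The 94.0% and the count within 2-fold are therefore no independent check of the sites.

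Fewer distal intergenic than promoter sites were in the thresholded lists of both replicates. Peaks of both lists overlapped 293 distal intergenic sites by 1 bp or more, or 58.7% (Wilson 95% interval 54.3 to 63.0%), against 1363 promoter sites, or 66.1% (64.0 to 68.1%). The difference of -7.35 percentage points passed Fisher's exact test (two-sided, adjusted p = 0.0265 over 54 comparisons between classes). Distal genic sites had 60.4%, and the difference from them did not pass (Fisher's exact test, adjusted p = 0.884). The replicate 1 list held 67.9% of distal intergenic against 77.6% of promoter sites (adjusted p = 0.000219), and the replicate 2 list held 74.5% against 80.3% (adjusted p = 0.0505, both Fisher's exact test). Counted by candidate summits in place of thresholded peaks the direction turned, with 94.0% against 93.1%, a difference of 0.92 points (Fisher's exact test, adjusted p = 0.931). All tests between classes here take sites as units. The sites share 1 experiment and neighbours are not independent, so these p-values describe this set of sites and not the spread between embryos.

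Strength moved with this result. The whole set was ranked by signal and divided into 4 equal bins. In the strongest bin all 73 distal intergenic sites were in both lists, and in the next bin 140 of 150 were (93.3%). The share was 67 of 127 (52.8%) in the following bin and 13 of 149 (8.72%) in the weakest. Promoter sites had 98.9, 90.1, 46.8 and 14.3% in the same order. An overlap of 1 bp can also credit a site with the replicate peak of a stronger neighbour. Beside ems a site with a signal of 2.57, whose peak overlapped a stronger one, counted as in both lists. It had no candidate summit within 100 bp in either replicate. How many of the 13 sites in the weakest bin were of this kind was not counted. The part of signal in the difference between classes was not tested.

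Distal intergenic sites were weaker than promoter sites. Their median signal was 127 (quartiles 91.3 and 179), against 128 for distal genic and 151 for promoter sites. The strongest 25% of the main set, with signals of 224.6 or more, held 73 distal intergenic sites, or 14.6% (Wilson 95% interval 11.8 to 18%), against 629 promoter sites, or 30.5% (28.5 to 32.5%). That difference of -15.9 points passed Fisher's exact test (two-sided, adjusted p = 5.29e-12). It was -8.74 points in the replicate 1 list (adjusted p = 0.00228) and -9.78 in the larger series-level set, both past the same exact test. Against distal genic sites, with 20.2%, it did not (Fisher's exact test, adjusted p = 0.0517). Among the 100 strongest sites of the set, 3 were distal intergenic, 15 distal genic and 82 promoter sites. The intervals cover counting error only, and the depth of the libraries is unknown.

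**Figure D2:**
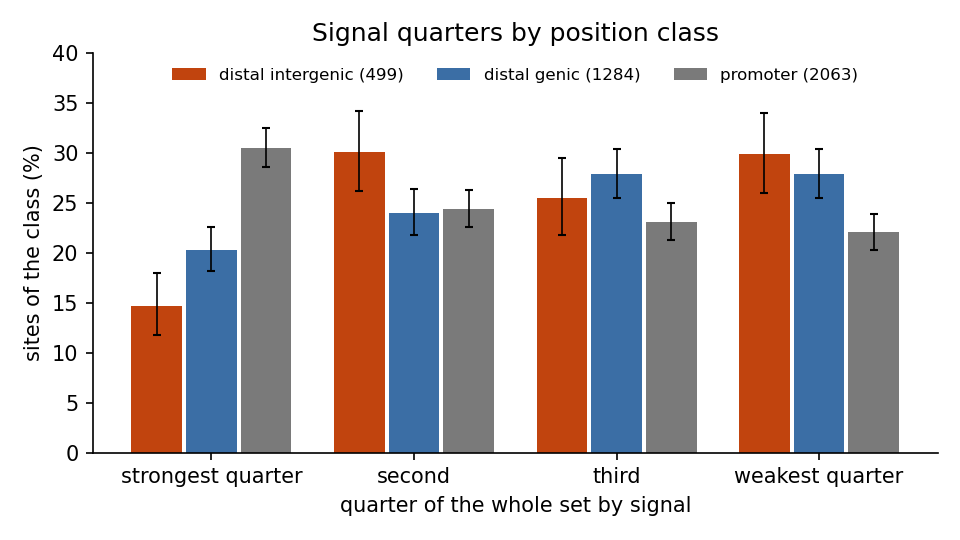
Share of distal intergenic, distal genic and promoter sites in each of 4 equal bins of the main set by signal (vertical, % of the class; bars are Wilson 95% intervals). Distal intergenic sites have the lowest share in the strongest bin, 14.6%, against 20.2% of distal genic and 30.5% of promoter sites.

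The weakest distal intergenic sites mostly overlapped a stronger one. Overlapping peaks formed 16 pairs of distal intergenic sites, with summits 199 to 220 bp apart. The lowest signals were 15 values between 2.57 and 33.4, with the next at 63.5, and 14 of these 15 sites were the weaker of such a pair. Of the 14, 13 had no candidate summit within 100 bp in either replicate. Keeping 1 site per group of overlapping peaks left 483 sites, an alternative chosen after the data were seen.

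Over all arms binding was sparser between genes than inside them, but this did not pass the test once the X was left out. Territory that meets the rule made up 33.6 Mb, or 25.1% of the arms, and carried 14.8 distal intergenic sites per Mb (exact Poisson 95% interval 13.6 to 16.2). Distal territory inside genes carried 18.7 distal genic sites per Mb (17.7 to 19.8), and promoter territory 65.3. The log2 ratio to distal genic sites was -0.33 (exact conditional binomial test, two-sided, adjusted p = 1.80e-05 over 6 density tests). The log2 ratio on the arms without the X, tried after seeing the data, was -0.13 and did not pass (exact conditional binomial test, adjusted p = 0.125). Distal intergenic and distal genic densities were 16.9 and 17.7 per Mb on 2L, 19.3 and 19.5 on 3L, 14.5 and 15 on 3R, and 10.7 and 17.1 on 2R. The intergenic territory held more soft-masked repeat sequence, 27.1% of its bases against 19.3% inside genes. On unmasked bases alone, an alternative chosen after the data were seen, the densities were 15.6 and 17.4 per Mb, the log2 ratio was -0.16 and the exact test no longer passed (adjusted p = 0.0714). There the distal intergenic density was the higher on 2L (17.7 against 15 per Mb), 3L (20.9 against 18) and 3R (15.1 against 14.3). On each of these arms the Poisson 95% intervals of the 2 classes overlapped. It was the lower on 2R (11.0 against 17.2 per Mb) and X (11.0 against 24.2).

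The density was lower in bins farther from a start. Between 1 and 2 kb from the nearest start there were 131 distal intergenic sites, or 28.7 per Mb (24.0 to 34.1), and from 2 to 5 kb there were 190, or 21.2 per Mb (18.3 to 24.4). From 5 to 10 kb there were 107 sites, or 14.9 per Mb, and from 10 to 20 kb there were 53, or 10.6 per Mb. Beyond 20 kb there were 18 sites in 7.94 Mb, or 2.27 per Mb (1.34 to 3.58), the only bin with under 20 sites. Distal genic sites had 25.1, 19.3, 19.8, 17.0 and 7.33 per Mb over the same distances. Soft-masked sequence made up 20% of the nearest intergenic bin and 41.5% of the farthest, and on unmasked bases the densities there were 26.0 and 2.80 per Mb. The median signal of the sites was 142 in the nearest bin and 117 in the farthest.

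**Figure D3:**
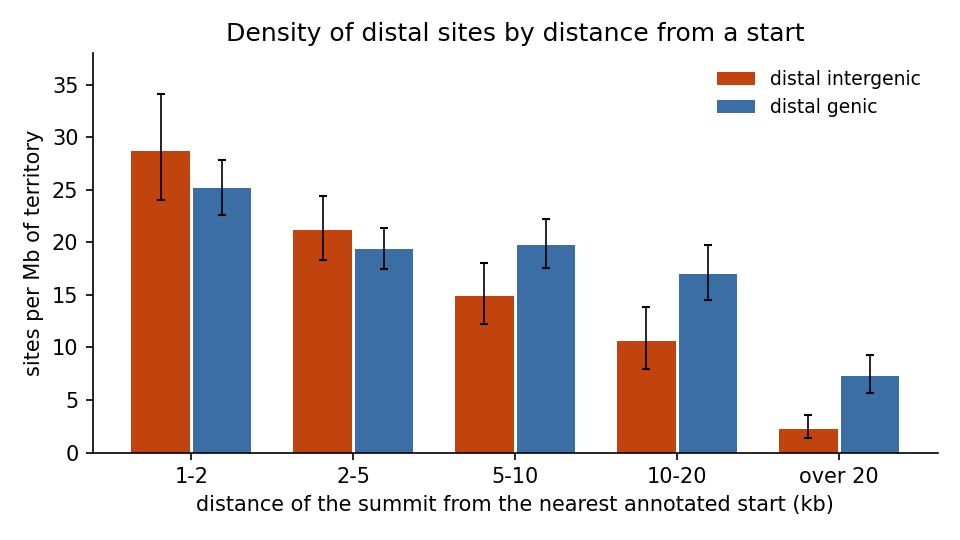
Distal intergenic and distal genic sites per Mb of their own territory (vertical), by distance of the summit from the nearest start in kb (horizontal); bars are exact Poisson 95% intervals. The distal intergenic density is 28.7 per Mb at 1 to 2 kb and 2.27 per Mb beyond 20 kb, against 25.1 and 7.33 per Mb for distal genic sites.

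On the X chromosome distal intergenic sites were sparser, and distal genic sites denser, than on the other arms together. The X carried 56 distal intergenic sites, or 11.4 per Mb (8.64 to 14.9), and 353 distal genic sites, or 26.3 per Mb (23.6 to 29.2). Arm 3L carried 163 distal intergenic sites, or 19.3 per Mb (16.4 to 22.4), and arms 2L, 3R and 2R carried 103, 102 and 74, or 16.9, 14.5 and 10.7 per Mb. Chromosome 4 had 1 site. The X density of distal intergenic sites was 0.743 times that of the other arms (exact conditional binomial test, two-sided, adjusted p = 0.0431), and the same ratio was 1.56 for distal genic sites (adjusted p = 2.12e-11). The tests on the X were added after the data were seen. The difference between these ratios, a ratio of 0.476, passed an exact test on the noncentral hypergeometric distribution (two-sided, p = 4.66e-07). Against promoter sites, whose X ratio was 1.12, the ratio of ratios was 0.661 (exact test, p = 0.00585). The lower density on the X by itself did not pass in the replicate 1 list (log2 ratio -0.40, exact test, adjusted p = 0.0692), at a start distance of 2000 bp (adjusted p = 0.0536), with 1 site per group of overlapping peaks (adjusted p = 0.0705) or with coding genes alone (adjusted p = 0.0658). In the replicate 1 list the difference from promoter sites did not pass either (log2 ratio of ratios -0.13, exact p = 0.638). The density on 2R was lower still than on the X, and no test was run on it. Arm 3L, singled out because it was the densest, had 1.44 times the density of the other arms (exact conditional binomial test, two-sided, adjusted p = 0.000294). It was adjusted together with the other density tests. The p-value takes no account of the choice of the densest arm, so the ratio is given as a description.

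**Figure D4:**
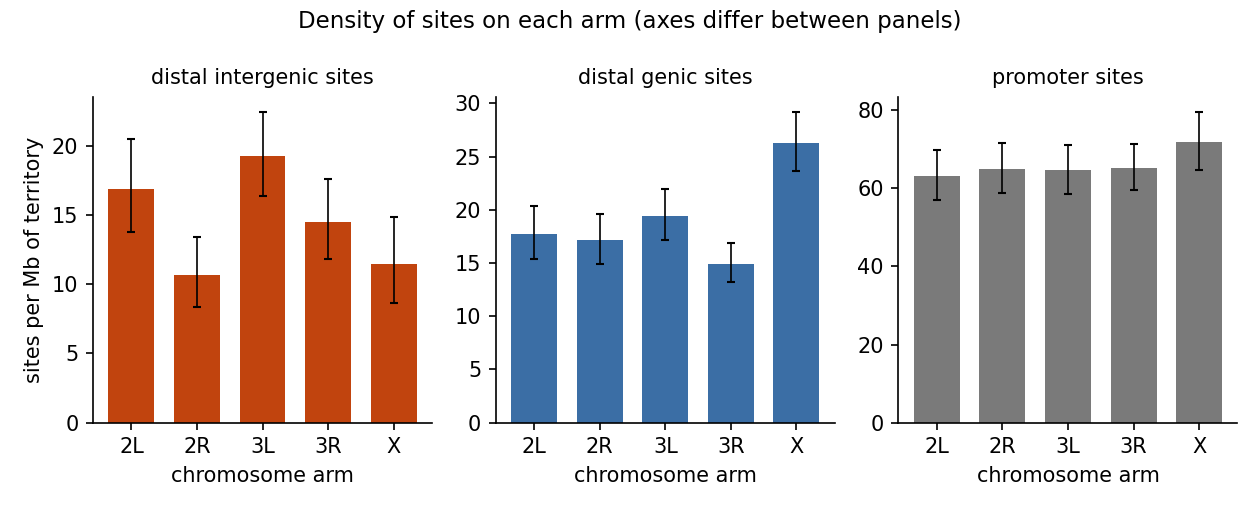
Sites per Mb of territory on 5 chromosome arms for distal intergenic, distal genic and promoter sites (left to right; the vertical axes differ and start at 0; bars are exact Poisson 95% intervals). X is low for distal intergenic sites, at 11.4 per Mb, and high for distal genic sites, at 26.3 per Mb.

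Distal intergenic sites often shared a gap between genes. Of 4793 gaps with territory that meets the rule, 347 (7.24%) held a site, and 95 gaps with 2 or more sites held 247 of the 499 sites (49.5%). Gaps with a site had a median length of 9.93 kb, against 3.11 kb for all gaps with such territory. Per Mb of territory, gaps up to 5 kb held 36.2 sites (29.7 to 43.8), and gaps over 50 kb held 3.07 (2.06 to 4.41). Gaps between divergent genes, which hold both upstream sides, had 19.1 sites per Mb (15.9 to 22.8), against 14.3 in tandem gaps (12.5 to 16.2) and 15.2 in convergent gaps (12.7 to 18). No test was run on these groups of gaps. The nearest start belonged to a protein-coding gene for 332 sites (66.5%), and the same held for 66.7% of the territory.

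The 4 fullest gaps were on 3L. The gap of 32964 bp between tRNA:Ile-TAT-1-2 and CG13898 held 12 sites with signals of 71.8 to 541, of which 7 were in both replicate lists. Its strongest site had 255 in replicate 1 and 288 in replicate 2, and its next strongest, at 401 in the main set, had 204 and 186. The gap of 75047 bp between NijA, a ninjurin gene, and CG43245 held 11 sites with signals of 68.3 to 429, again with 7 in both lists. These included an overlapping pair with signals of 406 and 130. The gap of 70507 bp beside vvl, a POU factor of neural and tracheal development, held 7 sites with signals of 69.1 to 294. The strongest vvl site had 181 in replicate 1 and 117 in replicate 2. The gap of 19063 bp between lncRNA:CR44363 and CG7560 held 6 sites, and its 2 strongest (signals of 529 and 499.8) had 248 and 261 in replicate 1 and 280.2 and 259.5 in replicate 2. The gap beside ems, a head gap homeobox gene, held 5 sites on 3R with signals of 2.57 to 262. The strongest had 129 in replicate 1 and 131 in replicate 2. The weakest overlapped a stronger site and had no candidate summit within 100 bp in either replicate. The gap between lncRNA:CR45229 and CG16894 on 2R also held 5 sites.

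Genes beside these gaps included regulators of segmentation, head, heart and nerve cord. Of 7339 genes that border a gap with territory that meets the rule, 667 bordered a gap with a site (9.09%). Among protein-coding genes alone, with gaps drawn between coding bodies, it was 599 of 6182 (9.69%). Lists of developmental genes had higher counts, but their gaps were also longer. The median territory per gene was 20.5 kb for segmentation genes against 2.24 kb for all genes, so the density per Mb is given beside each count, against 14.8 for all territory. Density also differed with gap length, from 36.2 per Mb in gaps up to 5 kb to 3.07 in gaps over 50 kb. The 14.8 includes 9.44 Mb in gaps over 50 kb, which held 29 sites. The lists were not matched to all territory by gap length, so a density above 14.8 may not set a list apart. No test was made of these lists, which were chosen with earlier results of these data known, and several genes stand on more than 1 list. Overlapping peaks count as separate sites in these densities, and pairs of them lay beside tx, ems and Dr.

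Segmentation genes had 6 of 17 members beside such a gap, at 20.1 sites per Mb (8.67 to 39.6). They included slp1 and slp2, opa, a pair-rule zinc finger gene (signal 121), and wg, the Wnt ligand (signal 129). Hox and head gap homeobox genes had 2 of 14, at 45.9 per Mb (22.0 to 84.3), which were ems with 7 sites and oc, a head gap gene, with 3 (highest signal 186). Mesoderm and heart genes had 6 of 19, at 45.2 per Mb (21.7 to 83.1). Among them Doc2, a T-box gene, had 4 sites with a highest signal of 399, mid, another T-box gene, had 1 with 228, and the RNA-binding protein gene how had 1 with 222. Neuronal homeobox and POU genes had 6 of 25, at 41.6 per Mb (23.3 to 68.6), and vvl alone accounted for 7 of their 15 sites. In the same list tup, the fly Islet gene, had a highest signal of 145, and Dr had 141.

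Signals and receptors had 11 of 30 members beside such a gap, at 34.9 sites per Mb (19.1 to 58.6). The Hedgehog receptor gene ptc had 1 site with a signal of 336, the FGF ligand genes pyr and ths had a highest signal of 182, and the guidance receptor gene robo2 had 177. T-box, Sox, fork head and nuclear receptor genes had 10 of 28, at 33.3 per Mb (17.2 to 58.1), led by foxo, mid and SoxN (signal 203). tRNA genes had 11 of 68, at 55.3 per Mb (36.4 to 80.4), and 12 of their 27 sites lay in the gap beside tRNA:Ile-TAT-1-2. Non-coding RNA genes of the annotation had 187 of 1234, at 18.4 per Mb (16.2 to 20.8).

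Other lists had shares of 3.70 to 11.1%, around the 9.09% of all genes. The bHLH genes had 1 of 21, tx (signal 106), at 15.9 sites per Mb (1.93 to 57.5). The 2 sites beside tx were an overlapping pair, with signals of 106 and 9.58. GATA factors and partners had 1 of 9, the GATA factor gene srp (signal 81.5), at 16.9 per Mb (0.427 to 94.0). Neuropeptide and ion channel genes had 1 of 27, nAChRalpha7 (signal 143), at 13.5 per Mb (0.341 to 75). These intervals all span the 14.8 of all territory. Cell adhesion and guidance genes had 2 of 22, ed (signal 188) and Toll-6 (signal 72.4), at 5.50 per Mb (0.667 to 19.9). Ribosomal protein genes had 3 of 30, RpLP0, RpL17 and RpS15Aa, with signals of 117, 111 and 88.8, at 7.18 per Mb (1.48 to 21). With gaps drawn between coding genes the bHLH genes had 3 of 24 (12.5%, with Myc and hry added) at 18.6 per Mb, and cell adhesion and guidance genes had 4 of 22 (18.2%) at 10.8 per Mb. Small RNA lists were too short to describe, with 1 of 3 snRNA genes (snRNA:U2:14B, signal 199) and none of 4 snoRNA or of 3 rRNA genes.

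The summits of distal intergenic sites were poor in G and C, with shoulders that were rich in them. The G+C content of the 101 bp at the summit was 32.2% ± 9.12 (SD across 499 sites), against 45.7% ± 8.87 in a window of the same width 300 bp to the right and 45.3% ± 9.04 to the left. The territory as a whole had 40.9%, so the summits were below it and the windows beside them above it. Around 560 bp from the summit the mean was 40.7% to the left and 41.3% to the right. The summit was lower than both side windows at 396 of 499 sites (79.4%), against 76.5% of distal genic sites (Fisher's exact test, two-sided, adjusted p = 0.624) and 65.6% of promoter sites (adjusted p = 3.20e-08). Sites in the weakest of the 4 signal bins had a mean summit G+C content of 34.9%, and those in the other bins had 30.7 to 31.3%.

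**Figure D5:**
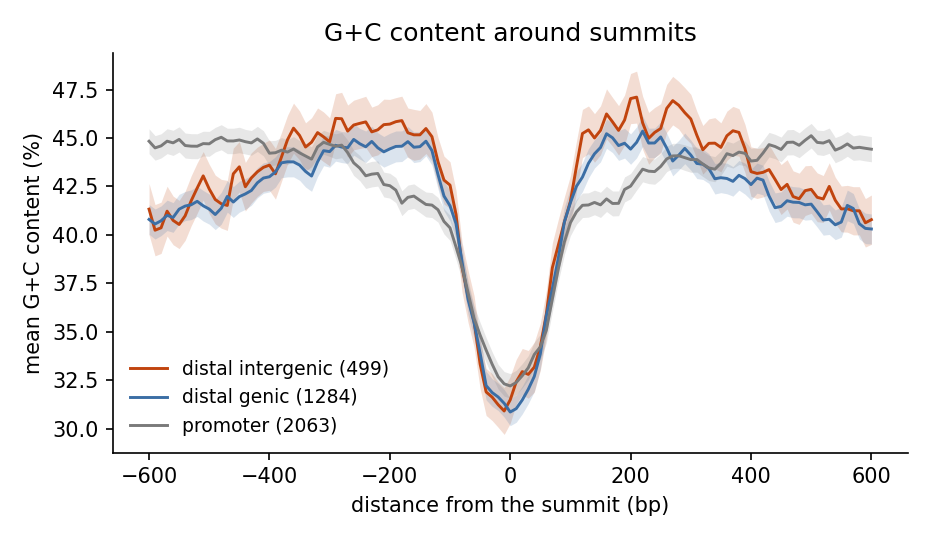
Mean G+C content (vertical, %) in steps of 10 bp around the summits (horizontal, bp) of distal intergenic, distal genic and promoter sites; bands are 95% intervals of the mean over sites. The distal intergenic curve has 31.5% at the summit and 45.2% and 46.2% at 160 bp to the left and right, against 44.5% and 45.2% for distal genic and 42.0% and 41.9% for promoter sites.

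Hexamers made of A and T were frequent in this core. Counting both strands together, 264 of all hexamers (12.7%) were more frequent at distal intergenic summits than 300 bp to the right, and 371 (17.8%) were less frequent (exact two-sided sign test over sites, adjusted p under 0.05). More frequent hexamers included every 1 of the 36 without G or C. The calls followed base content. Of 228 hexamers with 1 or no G or C, 176 were more frequent. Of 192 hexamers with 5 G or C, 109 were less frequent and none more. The sign test did not hold G+C content equal between summits and side windows, and how far it accounts for these calls was not tested. The smallest p was that of AATATA, found at 30.5% of summits and in 6.21% of side windows (log2 ratio 2.28, adjusted p = 6.06e-20, exact sign test). ATATTA and ATATAA followed, with log2 ratios of 2.41 and 2.16. TTAAAA was put among the motifs because earlier results of these data gave summits rich in A and T. Its p-value is therefore no independent test. TTAAAA was at 31.7% of summits against 11.4% to the right (log2 ratio 1.46, adjusted p = 8.29e-13 over 19 motifs, exact sign test) and 12.2% to the left. It was at 35.0% of distal genic and 36.5% of promoter summits, and neither difference passed (Fisher's exact test, adjusted p = 0.624 and 0.19). A run of 6 or more A or 6 or more T was at 29.3% of summits against 16% to the right (log2 ratio 0.86, exact sign test, adjusted p = 6.84e-06), but in the replicate 1 list it did not pass (log2 ratio 0.44, exact sign test, adjusted p = 0.0986). Among the less frequent hexamers were ACACAC, at 2.40% of summits against 12.6%, and CCCCCA, at 0.401% against 6.61%. The replicate 1 list alone gave 108 hexamers that were more frequent and 96 that were less frequent. The limit on G+C content given for the hexamers holds for TTAAAA and the runs of A or T too.

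The E-box CAGATG was rare at distal intergenic summits. It lay at 12 of 499 summits, a share of 2.40% (Wilson 95% interval 1.38 to 4.16%), against 33 windows to the right, or 6.61% (log2 ratio -1.42, exact sign test, adjusted p = 0.00909), but only 13 windows to the left, or 2.61% (log2 ratio -0.11, adjusted p = 1.00, exact sign test). The call to the right did not hold on the other side, nor in the list of either replicate alone (log2 ratios -0.92 and -0.83). Distal genic summits had 3.50% and promoter summits 2.47%, and neither difference passed (Fisher's exact test, adjusted p = 0.755 and 1.00). The 12 sites with CAGATG had signals of 71.9 to 435, 7 of them were in both replicate lists, and none was among the 15 strongest. The strongest was the site on chromosome 4 printed above, with 226 in replicate 1 and 209 in replicate 2, and the next were beside CG42238 (signal 194) and oc (signal 186). An E-box of any kind was at 165 summits (33.1%). Of the other E-boxes CAAGTG was less frequent at summits, at 6.01% against 10.2% to the right (exact sign test, adjusted p = 0.0441), but against 7.82% to the left it did not pass (adjusted p = 0.567, exact sign test), nor did it in the replicate 1 list (log2 ratio -0.24, adjusted p = 0.741, exact sign test). CACATG and CACGTG passed only against the left, CACATG at 2.81% of summits against 6.61% (adjusted p = 0.0302, exact sign test) and CACGTG at 0.401% against 2.40% (adjusted p = 0.0410, exact sign test). Summits and side windows differed in G+C content as given above, and its part in these E-box differences was not tested.

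The GATA motif WGATAR lay at 108 summits, a share of 21.6% (Wilson 95% interval 18.3 to 25.5%), against 71 windows to the right, or 14.2% (log2 ratio 0.60, exact sign test, adjusted p = 0.00945). To the left it was in 85 windows, or 17.0%, and the difference did not pass (log2 ratio 0.34, adjusted p = 0.187, exact sign test), nor did it in the replicate 2 list (log2 ratio 0.39, adjusted p = 0.198, exact sign test). The G+C content differed between these windows as given above, and its part in this difference was not tested. Distal genic summits had 24.8% and promoter summits 21.2%, neither of which differed detectably (Fisher's exact test, adjusted p = 0.624 and 0.922). CAGATG and WGATAR were together at 3 summits, and 262 summits (52.5%) had neither an E-box nor WGATAR. CTG followed by GATA at the spacing of 7 to 9 bp known from the vertebrate Tal1 composite site occurred 18 times within 100 bp of summits, against 24.7 that the other spacings of 0 to 20 bp would give.

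Other motifs set the distal intergenic sites apart from promoter sites in 1 case. CGATA, known from sites of the boundary factor BEAF-32 and contained in the DREF motif TATCGATA, was at 8.62% of distal intergenic summits against 14.6% of promoter summits (Fisher's exact test, two-sided, adjusted p = 0.00437). TATCGATA itself was at 2 against 34 summits, 0.401 against 1.65%, and did not pass (Fisher's exact test, adjusted p = 0.19). Against distal genic summits the share with CGATA differed by -1.43 points, which did not pass (Fisher's exact test, adjusted p = 0.806). The lower share was thus detected against promoter summits only. With 100 bp to each side of the summit, CGATA, TATCGATA and CAGCTG were all less frequent at distal intergenic than at promoter sites (Fisher's exact test, adjusted p = 1.28e-06, 5.09e-05 and 0.000601). GCCAT, at the core of the Pho motif, was at 12.6% of summits against 23.0% to the right (exact sign test, adjusted p = 0.000166) and 22.8% to the left. GAGAG, the motif of the GAGA factor, was at 8.02% against 12.4% to the right, which did not pass (adjusted p = 0.0624, exact sign test), and 15.6% to the left, which did (adjusted p = 0.002, exact sign test). The part of G+C content in these differences from side windows was not tested. GCCAT was at 11.4% of distal genic and 13.2% of promoter summits, and GAGAG at 8.64 and 8.48%. None of these differed detectably from distal intergenic summits (Fisher's exact test, adjusted p = 0.884 to 0.922).

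Candidate peaks between genes passed the authors' reproducibility threshold less often than candidates at promoters. Candidates are ranked by their irreproducible discovery rate (IDR), which measures how well ranks repeat. Of 13623 distal intergenic candidates 503 passed, or 3.69% (Wilson 95% interval 3.39 to 4.02%), against 2106 of 27768 promoter candidates, or 7.58% (7.28 to 7.90%; Fisher's exact test, two-sided, p = 2.09e-57). The difference was -3.89 points. In the candidate list of replicate 1 it was -3.15 points, with 3.92% of 11596 distal intergenic against 7.07% of 32606 promoter candidates. In that of replicate 2 it was -7.04 points, with 2.34% of 20315 against 9.38% of 20782. The lists thus differed in how many candidates they held, while 454 and 476 distal intergenic candidates passed in replicates 1 and 2. In the list behind the main set, distal genic candidates had 2.71%, below the distal intergenic share (Fisher's exact test, p = 4.73e-09). In the candidate list of replicate 2 the direction against distal genic candidates turned, with 2.34% against 2.70% (Fisher's exact test, p = 0.00927).

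The limit of 1000 bp parted sites with signals of a like range. Just inside the rule lay sites 1001 bp from Cad89D, 1003 bp from CG33080 and 1006 bp from CG14207, with signals of 115, 106 and 171. Just outside lay sites 988 bp from CG2772, 981 bp from lncRNA:CR45737 and 981 bp from CG12075, with signals of 105, 276 and 145. With limits of 500, 2000 and 5000 bp the rule gave 593, 368 and 178 sites.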

How the data were processed

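Each replicate and each of 2 series-level sets had a ranked candidate list and a thresholded list, on assembly dm6 per the labels. The signal values are the authors', and no source used here states their scale. The score column was deposited as a whole number that rises with the −log10 IDR, and the deposited −log10 IDR of candidates was used only to check that the threshold, a score of 830, separates them. Peak caller and aligner: not given in the sources used here. Depth is unknown. The main set was the conservative thresholded set.

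Genes and starts came from Ensembl release 115 (BDGP6.54) without transposable elements, 18164 genes in all, and unplaced scaffolds were left out. Sequences came from RefSeq Release 6, and none from arm 2R was printed. The members, gene lists and tests were chosen with earlier results of these data known. Benjamini-Hochberg adjustment covered 54 comparisons between classes, 19 motifs, all hexamers and 6 densities, and 0.5 was added to each count of sites in log2 ratios. The sites named were the 15 strongest, the 5 fullest gaps with ties, the 3 nearest to the limit on either side, up to 3 genes per list by signal and the hexamers of smallest p. Alternatives were other sets, each replicate alone, distances, windows and overlaps. Statistics were tested on simulated data. Software was scipy 1.17.1 with numpy 2.4.6, pandas 2.3.3, and matplotlib 3.10.9 for figures, under Python 3.11.15.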

Additional observations from a re-analysis of the deposited data

Results flagged for a closer look

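Candidates that the main set leaves out included sites of this kind. Of 71 candidates past the IDR threshold that are absent from the main set, 4 met the rule for distal intergenic sites, all on 2L. Their signals were 279 (near COX7AL2, with 122 in replicate 1 and 151 in replicate 2), 269.8 and 167 (near lncRNA:CR44588) and 209 (near Rh5, a rhodopsin gene). They were singled out because they lie outside the set used, and no cause was tested.

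The larger series-level set held 747 distal intergenic sites, of which 258 overlapped no site of the main set. The median signal of these 258 was 69.9 and the highest 383. They appear in none of the comparisons above.

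The effect of the X chromosome differed between classes of sites. The log2 ratio of ratios was -1.07 for distal intergenic over distal genic sites and -0.60 for distal intergenic over promoter sites, each from the exact test of the difference given above. The cause was not tested.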

How the results depend on the processing

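Leaving aside 3L, 79 combinations of a result and an alternative kept the direction and the side of the threshold, or a count within 1.5 times, and 20 lost the call. TTAAAA, the share in the strongest 25%, the share of candidates past the IDR threshold and the X difference from distal genic sites kept their call in every alternative run. No result of CAGATG turned, but its call was lost with windows of 25 bp (log2 ratio -1.20) and 100 bp (-0.67), with the flank 300 bp to the left (-0.11) or 500 bp to the right (-1.03), in the stronger 50% by signal (-1.27) and without either replicate (-0.92 to -0.83). WGATAR lost its call with windows of 25 bp (0.73), the flank to the left (0.34) or 500 bp to the right (0.36), the stronger 50% by signal (0.58) and without replicate 1 (0.39 to 0.67 over both replicates). Hexamers more frequent numbered 119 in the stronger 50% by signal, 107 with windows of 25 bp, 137 with the flank at 500 bp and 108 to 229 without either replicate. Less frequent ones numbered 102, 86, 155 and 96 to 339 there, and 204 with a start distance of 2000 bp. The number of sites was 223 in the stronger 50% by signal and 178 at a start distance of 5000 bp. The density ratio to distal genic sites lost its call without soft-masked bases (-0.16) and on the arms without X (-0.13), and was -0.18 with coding genes alone. The share in the strongest 25% was -16.4 to -8.74 points and that of candidates -7.04 to -3.15 points without either replicate. The share in both lists turned with candidate summits (0.92 points) and was -9.62 to -5.77 points in single replicates. Motif differences between classes numbered 3 with windows of 100 bp. The X difference from promoter sites was -0.72 to -0.13 without either replicate. The cause of these changes was not tested. No paired analysis was possible because there was only 1 group. Alternatives on overlapping peaks, unmasked bases, the X chromosome and 3L were chosen after the data were seen.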

Other observations

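A hexamer that is not rich in A and T stood out at distal intergenic summits, and it was named after its values were seen. Of the 264 more frequent hexamers, CAGTGC was the 1 with 4 G or C. It was at 44 of 499 distal intergenic summits, or 8.82%, against 3.21% of windows to the right and 2.81% to the left. At distal genic summits it was at 4.98%, against 4.52% to the right and 4.21% to the left, and at promoter summits at 5.48%, against 5.62 and 5.14%. Among the 293 distal intergenic sites in both replicate lists, 23 held it (7.85%), and the median signal of the 44 sites was 117. CACTGA, at 39 distal intergenic summits (7.82%), was at 2.61% of windows to the right and 3.21% to the left. It was above its side windows in the other classes too. Distal genic summits had 6.54%, against 3.97% to the right and 4.52% to the left. Promoter summits had 5.62%, against 3.44 and 4.17%. Whether these classes differ was not tested.

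Signal and sequence features varied among the distal intergenic sites. Sites on 2L had a median signal of 151, and those on 3R and X had 116 each. Convergent gaps had a median of 140.5, divergent gaps 133 and tandem gaps 118. TTAAAA was at 30.1% of the sites in the strongest 25% of the set and 26.2% in the weakest 25%, and WGATAR at 16.4% and 16.1%. Both were more frequent in the bins between them, at 32.0 and 38.6% for TTAAAA and 24.0 and 28.3% for WGATAR. Another site of the main set lay within 5 kb of 247 distal intergenic sites (49.5%), and of 98 of the 163 on 3L (60.1%) against 21 of the 56 on X (37.5%). These are descriptions without a test, and overlapping peaks count as separate sites in them.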
